A study of Homo sapiens with 6 samples.

Results

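The acute-phase genes of hepatocytes described here are CRP, SAA1, SAA2, SAA4, ORM1, ORM2, LBP, FGL1, HP and LCN2. These 10 genes were chosen by name, and their rows were read from a table of 16721 rows of raw read counts. Of the 10, 8 had a row and 4 of those (FGL1, LCN2, ORM1 and ORM2) had enough reads to be tested among 12839 tested genes. CRP and SAA2 had no row and are not analysed here. A missing row is not a count of 0, since 15 rows of the table held 0 in every library.

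The study asked what RFX6, a transcription factor with a winged-helix DNA-binding domain, does in hepatocellular carcinoma. Hep3B is an established human cell line from such a tumour. Total RNA was sequenced from 3 libraries labelled WT and sgControl and from 3 libraries labelled as RFX6 knockout, sgRFX6. The guides were delivered with the lentiviral CRISPR vector lentiCRISPRv2, infected cells were selected with puromycin, and clones grown from single cells were picked. The knockout columns carry the guide name sg3 and the control columns the name cas, which is not explained. The labels do not say whether the 3 libraries of a group came from separate clones or cultures, so the p-values below measure only the spread between these libraries, which may be technical. A difference between the groups and a difference between the clones they came from cannot be told apart.

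Acute-phase proteins are plasma proteins whose production by the liver changes within hours of infection or injury. IL-6 and its relatives act through the shared receptor gp130, JAK kinases and STAT3, while IL-1 and TNF act through NF-kB. Both routes meet C/EBP factors at acute-phase promoters, and the positive proteins rise while negative ones such as albumin fall.

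The libraries held between 16730386 and 25070793 counts, at which 3 counts correspond to between 0.122 and 0.189 CPM (reads relative to library size, with edgeR's TMM factors). Values of up to 3 counts were treated as background. RFX6 itself had 117, 144 and 170 reads under sgControl and 69, 59 and 77 reads under sgRFX6. This is a log2 fold change of -0.82 (standard error, SE, 0.26, quasi-likelihood test of edgeR, adjusted p = 0.142), so a lower RFX6 transcript level was not called. A transcript count does not show whether the protein was lost. The study reports that it checked its RFX6 knockout by western blotting and real-time PCR. Of 15 hepatocyte lineage markers, all were tested, 1 was called higher (AFP, alpha-fetoprotein) and 3 lower (FGB, RBP4 and CPS1), and their summed level was 407 to 468 CPM in sgControl and 311 to 323 CPM in sgRFX6. Over all 12839 tested genes 3.74% were called, the share beside which this and the later list counts by edgeR stand. CPS1 lost its call without sgControl replicate 2 or 3 and without sgRFX6 replicate 1 or 2, with adjusted p of up to 0.105 in edgeR. The markers TTR and APOA1, both abundant in normal liver, were counted only 6 to 21 and 14 to 49 times (these 2 are named after their values were seen). The collagen transcript COL3A1 was counted 478, 680 and 615 times in sgControl and 2, 0 and 0 times in sgRFX6.

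ORM1 and ORM2 lie next to each other on chromosome 9 and are near copies, which bears on how their reads can be told apart. In GENCODE release 29 both have a coding sequence of 603 bases, with 31 differences and 94.9% identity. The stretch of coding bases 314 to 403, counted from 1 at the first base of the start codon, holds 18 of these differences. It is printed below from the GENCODE transcripts, with the differing bases in capitals, since it is the stretch where the 2 coding sequences differ most densely.
ORM1: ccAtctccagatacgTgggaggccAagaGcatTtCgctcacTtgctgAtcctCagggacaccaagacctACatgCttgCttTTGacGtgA
ORM2: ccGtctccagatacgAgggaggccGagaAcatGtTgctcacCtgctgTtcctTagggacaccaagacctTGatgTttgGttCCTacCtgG
Over whole transcripts, 47.4% of the 50-base windows of ORM1 also occur in ORM2, and 33.7% of its 100-base windows do. For SAA1 and SAA2 the shares of SAA1 windows found in SAA2 were 54.2% and 37.2%, and for HP and its copy HPR they were 28.6% and 12.9%. How the counting treated reads that match both copies is not given in the sources used here, so single values of these genes are uncertain.

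Promoter sequences were at hand for 4 of the 10 genes (CRP, SAA4, ORM1 and LCN2, from RefSeq, GRCh38.p14). The LCN2 sequence is shown because LCN2 was the one of these 4 with the larger fold change in the counts. It spans chr9:128149265-128149440 on the plus strand. This is the part of the 250 bases upstream of the RefSeq start that lies outside every exon GENCODE gives for the gene. GENCODE begins the gene earlier, at 128149071, so the stretch is upstream of the RefSeq start but within the GENCODE bounds of LCN2. Capitals mark a match to the NF-kB letters GGGNNNTTC, which begins 174 bases before the RefSeq start, and a match to the C/EBP letters TTGCNNAA, which begins 143 bases before it.
LCN2: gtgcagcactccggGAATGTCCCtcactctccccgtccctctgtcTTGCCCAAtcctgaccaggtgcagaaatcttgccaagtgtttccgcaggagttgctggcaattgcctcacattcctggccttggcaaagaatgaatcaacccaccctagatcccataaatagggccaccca
Both strands were searched in windows from 250 bases before to 50 bases after the start, and no overlap between these 2 matches was found. The NF-kB letters occurred in 15.5% and the C/EBP letters in 10.5% of 35116 RefSeq promoter windows. SAA4 held the C/EBP letters 3 times, beginning 236, 69 and 54 bases before its start. The STAT3 letters TTCNNNGAA (7.7% of windows) and the core RFX letters GTTGCC (12.2%) were in none of the 4 windows, and CRP and ORM1 held none of these 4 motifs. A match is a string of letters in this window and was not tested as a binding site.

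FGL1 was the only one of the 4 tested acute-phase genes that passed the test, and it rose in sgRFX6. FGL1 encodes fibrinogen-like protein 1, a liver-secreted protein of the fibrinogen family that acts on hepatocyte growth and is a ligand of the T-cell receptor LAG3. It lies on chromosome 8 of GRCh38 from 17864380 to 17910365 on the minus strand. Its counts were 124, 149 and 128 in the sgControl libraries and 346, 264 and 585 in the sgRFX6 libraries. Scaled to library size, these were 5.98, 6.03 and 5.53 CPM in sgControl and 17.2, 16.6 and 26.6 CPM in sgRFX6. Every sgRFX6 library lay well above every sgControl library, and sgRFX6 replicate 3 stood highest. The mean level went from 5.85 ± 0.278 CPM to 20.1 ± 5.60 CPM (SD, n = 3 each). This is 3.44-fold higher, a log2 fold change of 1.78 (SE 0.26, 95% interval 1.19 to 2.38, edgeR's quasi-likelihood test, adjusted p = 0.00805). A two-sided exact permutation test of the 6 CPM values gave p = 0.1, and no smaller p is possible with 3 libraries a group. Over the whole table, 3.74% of tested genes were called, 1.92% as higher and 1.81% as lower in sgRFX6, and the acute-phase genes added a single call in 4. The FGL1 call was lost without sgControl replicate 3 (log2 fold change 1.78, edgeR, adjusted p = 0.0610) and held in the other 15 of 16 alternatives. In bulk RNA such as this, a change in the number of cells that make a transcript and a change in transcript per cell cannot be told apart.

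**Figure D1:**
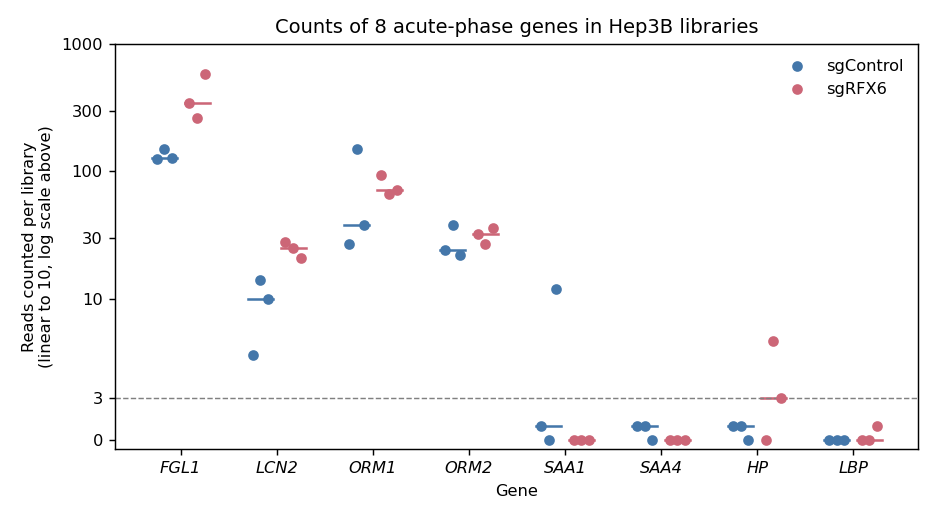
Reads counted in each of the 6 libraries (y axis, linear up to 10 and on a log scale above) for the 8 acute-phase genes with a row (x axis), with sgControl in blue and sgRFX6 in red. Points are libraries, not scaled for depth, bars are group medians, and the dashed line is the background of 3 counts. FGL1 and LCN2 show no overlap between the groups, ORM1 has 1 high sgControl library at 151 counts, and the other 4 genes lie at or near 0 apart from 12 reads of SAA1 and 7 reads of HP in single libraries.

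LCN2 lay at a low level, and its sgRFX6 libraries were all above its sgControl libraries, but it did not pass the test. LCN2, lipocalin 2, is a secreted protein that binds the iron-carrying siderophores of bacteria, and it is induced in hepatocytes by IL-1 and IL-6. The gene lies on chromosome 9 of GRCh38 from 128149071 to 128153455 on the plus strand. Its counts were 6, 14 and 10 in sgControl and 28, 25 and 21 in sgRFX6. The scaled values were 0.289, 0.567 and 0.432 CPM in sgControl and 1.39, 1.57 and 0.954 CPM in sgRFX6. The group means were 0.429 ± 0.139 CPM and 1.31 ± 0.317 CPM (SD, n = 3 each), which is 2.97-fold higher. On the log2 scale LCN2 differed by 1.57 (SE 0.42, 95% interval 0.62 to 2.52, edgeR, adjusted p = 0.0864, exact permutation p = 0.1). LCN2 was called in 2 of 16 alternatives, limma-voom with sample quality weights (log2 fold change 1.77, adjusted p = 0.00103) and a correction for GC content (log2 fold change 1.59, edgeR, adjusted p = 0.0252).

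LCN2 is also stored in the granules of neutrophils, so markers of myeloid cells are given beside it. Of 15 neutrophil and macrophage markers, 4 had no row (MPO, ELANE, FCGR3B and S100A12), 6 were tested and 2 were called, both higher in sgRFX6 (CD163 and ITGAM). Their summed level was 77.7 to 164 CPM in sgControl and 75.2 to 115 CPM in sgRFX6. The neutrophil genes S100A8 and CSF3R were counted 0, 0 and 0 and 0, 3 and 2 times in sgControl and 0, 0 and 1 and 0, 0 and 2 times in sgRFX6. The lysozyme gene LYZ was counted 5, 18 and 9 times in sgControl and 29, 36 and 40 times in sgRFX6, with no overlap (log2 fold change 1.99, edgeR, adjusted p = 0.0526). S100A9, at or near background, was counted 1, 0 and 1 times and 1, 3 and 7 times. LYZ and S100A9 thus had higher values in sgRFX6, as LCN2 did, and these 4 markers are named after their values were seen. CD163 and LYZ had enough reads to be tested only because of their sgRFX6 libraries. Their place among the tested markers therefore follows from their higher values there. Not every tested marker had higher values in sgRFX6. CD14, CD68 and PTPRC had log2 fold changes of -0.79, -0.29 and -0.06 (edgeR, adjusted p = 0.44, 0.756 and 0.978). CD14, CD68 and PTPRC are also named after their values were seen. ITGAM had a log2 fold change of 1.26 (edgeR, adjusted p = 0.0449), and only 1 of the 6 fits that left out 1 library kept its call, that without sgRFX6 replicate 3 (edgeR, adjusted p = 0.0339), while without sgControl replicate 3 the adjusted p was 0.203 in edgeR.

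ORM1 and ORM2 encode the alpha-1-acid glycoproteins, plasma proteins that carry basic and neutral drugs. ORM1 lies on chromosome 9 of GRCh38 from 114323056 to 114326475 and ORM2 from 114329869 to 114333252, both on the plus strand. ORM1 was counted 27, 151 and 38 times in sgControl and 94, 67 and 71 times in sgRFX6. These were 1.30, 6.12 and 1.64 CPM and 4.67, 4.21 and 3.23 CPM. The groups overlapped, because sgControl replicate 2 lay above all 3 sgRFX6 libraries while the other sgControl libraries lay below them. Mean levels were 3.02 ± 2.69 CPM and 4.03 ± 0.738 CPM (SD, n = 3 each). ORM1 had a log2 fold change of 0.41 (SE 0.55, 95% interval -0.85 to 1.67, edgeR, adjusted p = 0.821, exact permutation p = 0.5). Without sgControl replicate 2 it was 1.45 (edgeR, adjusted p = 0.0683), while without sgControl replicate 1 it was 0.05 and without sgControl replicate 3 it was 0.13. Limma-voom with sample quality weights, which gives less weight to libraries far from the rest, called ORM1 with a log2 fold change of 1.42 (adjusted p = 0.00240).

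ORM2 was counted 24, 38 and 22 times in sgControl and 32, 27 and 36 times in sgRFX6. Its scaled values of 1.16, 1.54 and 0.950 CPM in sgControl all lay below the 1.59, 1.70 and 1.64 CPM of sgRFX6, though the gap between the groups was small. The means were 1.22 ± 0.299 CPM and 1.64 ± 0.0539 CPM (SD, n = 3 each), with a log2 fold change of 0.43 (SE 0.34, 95% interval -0.33 to 1.19, edgeR, adjusted p = 0.625, exact permutation p = 0.1). With the reads of ORM1 and ORM2 added together, the counts were 51, 189 and 60 in sgControl and 126, 94 and 107 in sgRFX6. The sum had a log2 fold change of 0.42 (SE 0.45, 95% interval -0.60 to 1.44, edgeR, adjusted p = 0.752). The ratio of ORM1 to ORM2 counts was 1.12, 3.97 and 1.73 in sgControl and 2.94, 2.48 and 1.97 in sgRFX6. In sgControl replicate 2 the reads of ORM1 thus outnumbered those of ORM2 the most, and the groups did not separate by this ratio (exact permutation p = 0.6).

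**Figure D2:**
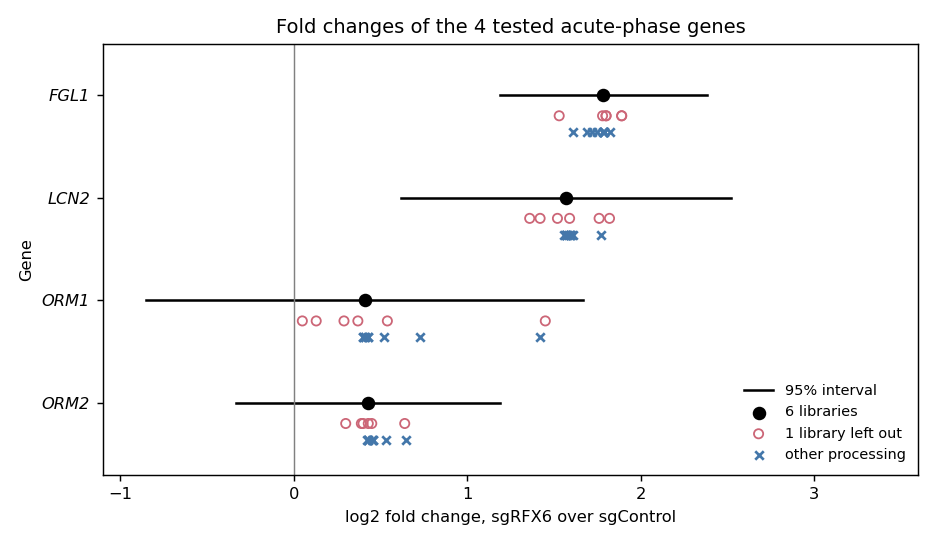
Log2 fold change of sgRFX6 over sgControl (x axis) for the 4 tested acute-phase genes (y axis). Black points and bars are the values from all 6 libraries with their 95% intervals, open red circles leave out 1 library each, and blue crosses are the other processing alternatives. FGL1 stayed between 1.53 and 1.89 and LCN2 between 1.36 and 1.82, while ORM1 ran from 0.05 to 1.45.

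Taking the 4 tested genes as a list, 1 was called higher and none lower, and their median log2 fold change was 1.0 beside 0.024 over all tested genes. In 3 of the 4 (FGL1, LCN2 and ORM2) every sgRFX6 library lay above every sgControl library, which was so for 12% of all tested genes. LCN2 had enough reads to be tested only because of its sgRFX6 libraries. Its part in this median and count therefore follows from its higher values there. The summed level of the 8 genes with a row was 8.87 to 14.3 CPM in sgControl and 24.5 to 32.6 CPM in sgRFX6. FGL1 supplied the largest part of it except in sgControl replicate 2, where ORM1 did so with 42.7%. The FGL1 share of the reads of these genes was 67.4%, 42.1% and 61.0% in the sgControl libraries and 69.2%, 67.7% and 81.6% in the sgRFX6 libraries.

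The other 4 genes were at or near background in both groups. SAA1 (chromosome 11, 18266174 to 18269977), the serum amyloid A apolipoprotein that rises most steeply in inflammation, was counted 1, 0 and 12 times in sgControl and 0 times in each sgRFX6 library. Only sgControl replicate 3, at 0.518 CPM, was above background, and a count of 0 allows a level of up to 0.189 CPM in the shallowest sgRFX6 library. SAA4 (chromosome 11, 18231349 to 18236893), the constitutive member of that family, was counted 1, 1 and 0 times in sgControl and not at all in sgRFX6. LBP (chromosome 20, 38346356 to 38377023), which hands bacterial lipopolysaccharide to CD14, had 1 read, in sgRFX6 replicate 3. HP (chromosome 16, 72054592 to 72061055), haptoglobin, which binds free haemoglobin, was counted 1, 1 and 0 times in sgControl and 0, 7 and 3 times in sgRFX6, with only sgRFX6 replicate 2 above 3 counts. Its copy HPR had 0, 0 and 2 and 0, 1 and 0 counts. Without the filter on low counts, edgeR's quasi-likelihood test gave adjusted p-values of 0.331 for SAA1, 0.622 for SAA4, 0.718 for LBP and 0.462 for HP. Differences in these 4 genes were not detectable at this depth.

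Per length, on the scale of CPM per kilobase of all exons annotated for the gene, ORM1 had the highest mean level of the 8 in sgControl, 3.35 ± 2.98, followed by FGL1 at 1.77 ± 0.0843, ORM2 at 1.60 ± 0.393 and LCN2 at 0.269 ± 0.0868. The range of ORM1 (1.44 to 6.79) enclosed that of FGL1 (1.67 to 1.83), which in turn lay within that of ORM2 (1.25 to 2.03), so the first 3 places were not distinguishable. In sgRFX6 the order was FGL1 at 6.09 ± 1.70, ORM1 at 4.48 ± 0.820, ORM2 at 2.16 ± 0.0710 and LCN2 at 0.817 ± 0.198. FGL1 (5.03 to 8.05) and ORM1 (3.58 to 5.18) still overlapped, and both lay above ORM2 (2.09 to 2.23). Among 12217 tested genes with a known length, 26.1% had a lower mean level per length than FGL1 in sgControl and 52.2% in sgRFX6. For LCN2 these shares were 6.1% and 15.1%. Even FGL1 was thus a gene of middling level in sgRFX6, and LCN2 remained among the low ones.

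The tested genes whose pattern over the 6 libraries was most like that of FGL1 were VSIG1, CDS1 and ATP10D. Their root mean square difference from FGL1 in centred log2 CPM was 0.13, 0.15 and 0.15 over the 6 libraries. VSIG1, a cell-surface protein of gastric epithelium, went from a mean of 92.2 CPM to 298 CPM, a log2 fold change of 1.69. CDS1, an enzyme that makes CDP-diacylglycerol, and ATP10D, a phospholipid flippase, had log2 fold changes of 1.79 and 2.07. The nearest 50 tested genes around FGL1 had a median log2 fold change of 0.09.

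Positive acute-phase genes outside these 10 moved in both directions. Of 24 such genes, 14 were tested, 2 rose (A2M and C4BPA) and 2 fell (FGA and FGB), and their median log2 fold change was 0.21. FGA and FGB encode the alpha and beta chains of fibrinogen, the clotting protein to whose family FGL1 belongs. FGA was counted 325, 560 and 303 times in sgControl and 114, 75 and 111 times in sgRFX6, a log2 fold change of -1.74 (SE 0.28, edgeR, adjusted p = 0.0107). FGB was counted 464, 850 and 522 times in sgControl and 93, 54 and 142 times in sgRFX6, a log2 fold change of -2.45 (SE 0.32, edgeR, adjusted p = 0.00417). Both calls held in all 16 alternatives. The gamma chain gene FGG, named after its values were seen, was counted 55, 181 and 42 times and 28, 23 and 23 times (log2 fold change -1.61, edgeR, adjusted p = 0.164).

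FGL1 and the alpha and beta chains were called in opposite directions, and their reads can be set side by side within each library. FGL1 reads per FGB read were 0.267, 0.175 and 0.245 in sgControl and 3.72, 4.89 and 4.12 in sgRFX6. The mean log2 ratio differed by 4.22 between the groups, which restates the opposite calls of the 2 genes and is given without a test. Per FGA read, the values were 0.382, 0.266 and 0.422 in sgControl and 3.04, 3.52 and 5.27 in sgRFX6. FGL1 was thus outnumbered by both chains in every sgControl library and outnumbered them in every sgRFX6 library.

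A2M, a broad protease inhibitor of plasma, was counted 3, 13 and 9 times in sgControl and 33, 36 and 49 times in sgRFX6 (log2 fold change 2.49, SE 0.47, edgeR, adjusted p = 0.0214). C4BPA, the alpha chain of the complement regulator C4b-binding protein, was counted 117, 233 and 143 times and 348, 243 and 429 times (log2 fold change 1.29, SE 0.27, edgeR, adjusted p = 0.0346). Both rises lost their call without sgControl replicate 1, without sgControl replicate 3, without sgRFX6 replicate 1 and without sgRFX6 replicate 2, where edgeR gave adjusted p-values of 0.0582, 0.0976, 0.0591 and 0.0683 for A2M and 0.132, 0.180, 0.118 and 0.0673 for C4BPA.

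**Figure D3:**
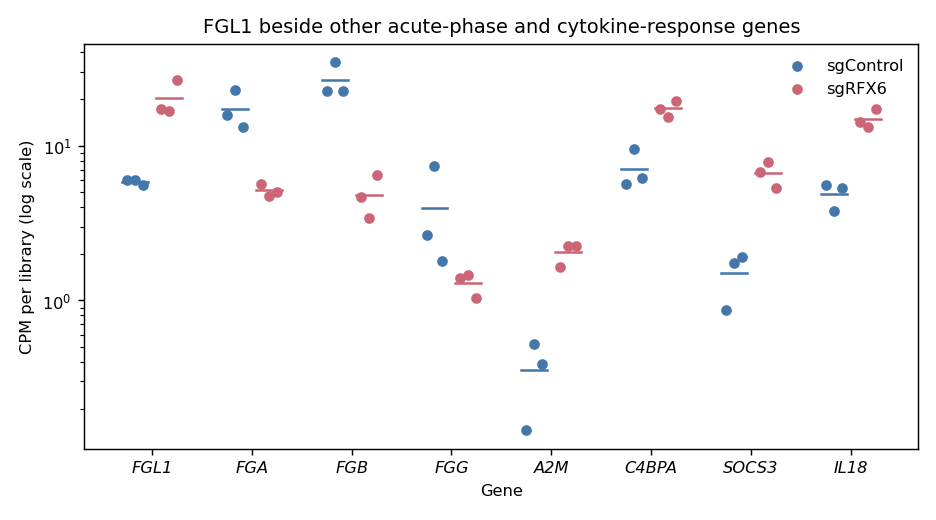
CPM per library (y axis, log scale) for FGL1, the 3 fibrinogen chain genes and 4 other genes of the acute-phase or cytokine lists (x axis), with sgControl in blue and sgRFX6 in red. Points are libraries and bars are group means (n = 3). FGL1, A2M, C4BPA, SOCS3 and IL18 lie higher in sgRFX6, while FGA, FGB and FGG lie lower. The 4 other genes shown were all called higher. AHSG, which was called higher, and SOCS2, IL27RA, ITIH2 and RBP4, which were called lower, are not shown.

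The negative acute-phase genes, which fall in inflammation, were also mixed. Of 12, 10 were tested, 1 rose (AHSG) and 2 fell (RBP4 and ITIH2), with a median log2 fold change of 0.59. AHSG, the mineral-binding plasma protein fetuin-A, was counted 37, 47 and 42 times in sgControl and 120, 107 and 111 times in sgRFX6 (log2 fold change 1.68, SE 0.27, edgeR, adjusted p = 0.0119). RBP4, the carrier of retinol in blood, was counted 483, 710 and 686 times and 254, 208 and 196 times (log2 fold change -1.24, SE 0.24, edgeR, adjusted p = 0.0247). ITIH2, a heavy chain of the inter-alpha-trypsin inhibitor family, was counted 649, 926 and 799 times and 198, 144 and 223 times (log2 fold change -1.83, SE 0.20, edgeR, adjusted p = 0.00254). The ITIH2 call held in all 16 alternatives. AHSG was not called without sgControl replicate 1 (edgeR, adjusted p = 0.0533), sgControl replicate 3 (0.0705) or sgRFX6 replicate 1 (0.0613). RBP4 was not called without sgControl replicate 2 (edgeR, adjusted p = 0.0658), sgControl replicate 3 (0.126), sgRFX6 replicate 1 (0.0904) or sgRFX6 replicate 2 (0.0518).

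Ligands of the IL-6 family differed widely in level. Of 9, 4 were tested and 0 were called by edgeR's quasi-likelihood test (0 also by DESeq2 and at an unadjusted p under 0.05, but 2 by limma-voom), with a median log2 fold change of 0.31. Over all 12839 tested genes, limma-voom called 3998, and 2000 had an unadjusted p under 0.05 in edgeR. DESeq2 called 908 of 16705 genes. IL6 itself was counted 8, 6 and 1 times in sgControl and 3, 1 and 0 times in sgRFX6. CLCF1, a ligand of the ciliary neurotrophic factor receptor, was counted 393, 362 and 416 times and 472, 460 and 462 times (log2 fold change 0.51, edgeR, adjusted p = 0.323). LIF, leukaemia inhibitory factor, was counted 205, 300 and 158 times and 295, 248 and 211 times (log2 fold change 0.46, edgeR, adjusted p = 0.535). These 3 ligands are named after their values were seen. Of 7 receptors of the family, all were tested, 1 fell and none rose, and the median log2 fold change was -0.16. The one that fell was IL27RA, which pairs with gp130 to bind IL-27, counted 179, 282 and 270 times and 109, 72 and 86 times (log2 fold change -1.20, SE 0.26, edgeR, adjusted p = 0.0412). Its call was lost in each of the 6 fits that left out 1 library, where edgeR gave adjusted p-values of 0.0528 to 0.199. IL6R, the IL-6 binding chain, was at 81.2 ± 16.6 CPM and 95.2 ± 10.6 CPM (SD, n = 3 each, log2 fold change 0.23, 95% interval -0.22 to 0.68, edgeR, adjusted p = 0.677). IL6ST, the gene of gp130, was counted 1494, 878 and 926 times and 596, 401 and 2821 times. That sgRFX6 replicate 3 lay far above the other sgRFX6 libraries set the sign of its log2 fold change, which was 0.31 with all libraries and -0.84 without that library (edgeR, adjusted p = 0.883 and 0.160).

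The JAK and STAT transducers gave no call. Of 7, 6 were tested, 0 were called by edgeR (0 also by DESeq2 and at an unadjusted p under 0.05, but 1 by limma-voom), and their log2 fold changes lay between -0.23 and 0.31. JAK1 was at 150 ± 16.7 CPM in sgControl and 139 ± 29.8 CPM in sgRFX6 (log2 fold change -0.11, 95% interval -0.57 to 0.34, edgeR, adjusted p = 0.872, n = 3 each). STAT3, the factor that carries the IL-6 signal to acute-phase promoters, was at 81.0 ± 6.87 CPM and 89.1 ± 15.6 CPM (log2 fold change 0.14, 95% interval -0.28 to 0.56, edgeR, adjusted p = 0.820, n = 3 each). These are transcript levels and do not show the phosphorylation through which STAT3 acts.

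Among 10 inhibitors and feedback genes of that route, 9 were tested, 1 rose (SOCS3) and 1 fell (SOCS2), with a median log2 fold change of 0.07. SOCS3, which STAT3 induces and which blocks gp130 in return, was counted 18, 43 and 44 times in sgControl and 135, 125 and 117 times in sgRFX6. Its mean rose from 1.50 ± 0.556 CPM to 6.63 ± 1.27 CPM (SD, n = 3 each), a log2 fold change of 2.13 (SE 0.36, edgeR, adjusted p = 0.0141). SOCS2, an inhibitor of growth hormone signalling, was counted 154, 314 and 126 times and 47, 36 and 33 times (log2 fold change -2.07, SE 0.38, edgeR, adjusted p = 0.0209). Without sgRFX6 replicate 1 neither was called (edgeR, adjusted p = 0.0588 for SOCS3 and 0.0716 for SOCS2), and without sgRFX6 replicate 2 SOCS2 was not (edgeR, adjusted p = 0.0572).

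On the IL-1 and TNF side, 6 of 10 ligands and receptors were tested, 1 rose and none fell, and the median log2 fold change was 0.31. The riser was IL18, a cytokine of the IL-1 family, counted 115, 93 and 123 times in sgControl and 286, 210 and 377 times in sgRFX6 (log2 fold change 1.61, SE 0.26, edgeR, adjusted p = 0.0114). Without sgControl replicate 3 it was not called (edgeR, adjusted p = 0.0617). IL1R1, the signalling receptor of IL-1, was at 59.5 ± 15.6 CPM and 50.9 ± 6.87 CPM (log2 fold change -0.22, 95% interval -0.74 to 0.29, edgeR, adjusted p = 0.732, n = 3 each).

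All 20 transducers from these receptors to NF-kB were tested and 0 were called by edgeR (0 by DESeq2, 7 by limma-voom and 1 at an unadjusted p under 0.05), with a median log2 fold change of 0.15. Among all 12839 tested genes, 3998 were called by limma-voom and 2000 had an unadjusted p under 0.05. The NF-kB subunit RELA was at 111 ± 6.16 CPM and 141 ± 35.1 CPM (log2 fold change 0.34, 95% interval -0.13 to 0.82, edgeR, adjusted p = 0.499, n = 3 each). NFKB1, the precursor of the p50 subunit, was at 49.4 ± 3.14 CPM and 49.5 ± 0.842 CPM (edgeR, adjusted p = 0.995, n = 3 each). All 10 inhibitors and feedback genes of NF-kB were tested as well, with 0 calls by edgeR, 1 each by DESeq2, by limma-voom and at an unadjusted p under 0.05, and a median log2 fold change of -0.01. NFKBIA, the inhibitor that NF-kB itself induces, had a log2 fold change of -0.40 (95% interval -1.09 to 0.29, edgeR, adjusted p = 0.610), and NFKBIZ, a cofactor needed for LCN2 induction, had -0.21 (95% interval -0.70 to 0.27, edgeR, adjusted p = 0.729).

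**Figure D4:**
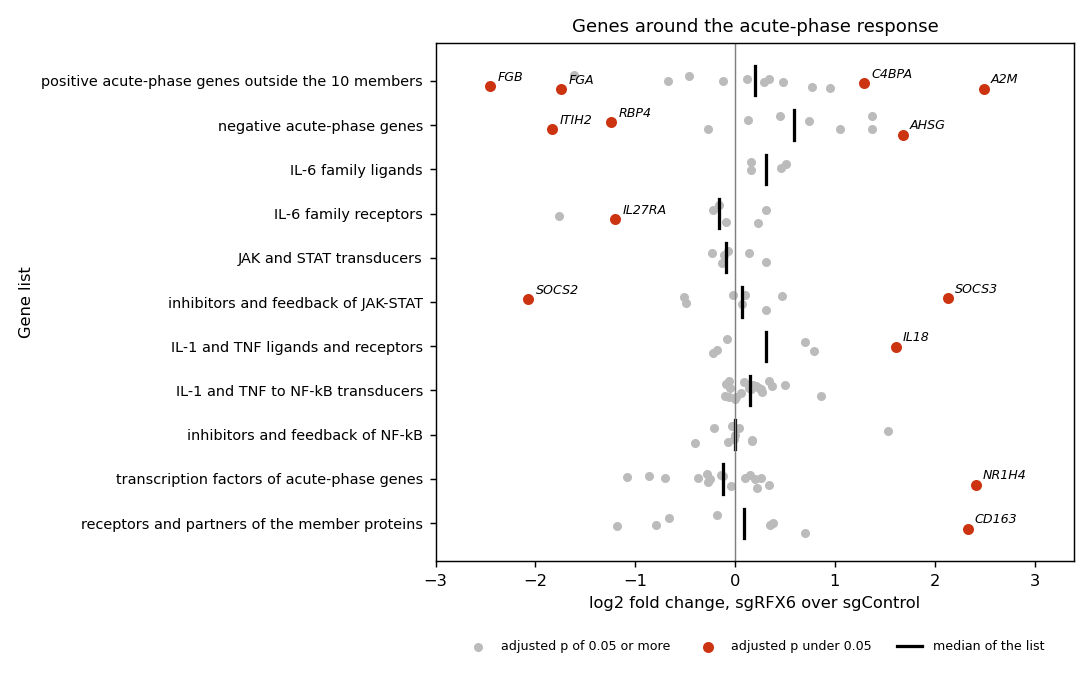
Log2 fold change of sgRFX6 over sgControl (x axis) for every tested gene of 11 lists around the acute-phase response (y axis). Points are genes, red with a name where the adjusted p from edgeR was under 0.05 and grey otherwise, and black bars are list medians. The list medians lie between -0.16 and 0.59, and the called genes stand to both sides of 0.

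Of 19 transcription factors that act at acute-phase genes, 17 were tested, 1 was called higher and none lower by edgeR, with a median log2 fold change of -0.12. DESeq2 called 3 and limma-voom 7, and 4 had an unadjusted p under 0.05 in edgeR. Over all genes these numbers were 908 of 16705, 3998 of 12839 and 2000 of 12839. The riser was NR1H4, the bile acid receptor FXR, low with 4, 5 and 3 reads in sgControl and 22, 12 and 22 in sgRFX6 (log2 fold change 2.41, SE 0.44, edgeR, adjusted p = 0.0203). It was not called without sgControl replicate 1 (edgeR, adjusted p = 0.0753), sgControl replicate 3 (0.105) or sgRFX6 replicate 1 (0.0937). CEBPB and CEBPD, the C/EBP factors of inflammation, had log2 fold changes of 0.10 (95% interval -0.43 to 0.62) and 0.15 (95% interval -0.36 to 0.66). HNF4A and FOXA2, factors of hepatocyte identity, had log2 fold changes of -0.27 and -0.12, each with an interval that spans 0 (edgeR, adjusted p of 0.494 and 0.845). FOXA1, FOXA3 and GATA6, named after their values were seen, had -1.08, -0.86 and -0.70 (edgeR, adjusted p = 0.0622, 0.182 and 0.0624). In these and in HNF4A, every sgRFX6 library lay below every sgControl library. Of the 17, 10 had a negative and 7 a positive log2 fold change.

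The receptors and partners of the 10 proteins came last. Of 15, 3 had no row (FPR2, SLC22A17 and CLEC4F), 8 were tested, 1 rose and none fell, and the median log2 fold change was 0.09. The riser was CD163, the receptor that clears complexes of haptoglobin with haemoglobin. It was counted 20, 11 and 18 times in sgControl and 66, 57 and 91 times in sgRFX6, with no overlap (log2 fold change 2.33, SE 0.37, edgeR, adjusted p = 0.0107, and 0.0594 without sgControl replicate 3). CD163 had enough reads to be tested only because of its sgRFX6 libraries. Its ligand HP was at or near background in the same libraries. LAG3, the receptor of FGL1, named after its values were seen, was counted 16, 49 and 28 times and 11, 13 and 9 times (log2 fold change -1.18, SE 0.48, edgeR, adjusted p = 0.266). Of 12 endothelial and fibroblast markers, 6 were tested and 3 fell (COL1A1, COL1A2 and COL3A1, of which COL1A1 was not called without sgControl replicate 3 or sgRFX6 replicate 1, edgeR, adjusted p of 0.0558 and 0.0650), and the summed level of the list was 63.7 to 72.3 CPM in sgControl and 36.4 to 73.9 CPM in sgRFX6. Whether the myeloid or collagen markers had a part in any result above was not tested.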

How the data were processed

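RNA of Hep3B cells was sequenced by the authors on an Illumina instrument, and they deposited 1 table of raw counts, whole numbers of reads per gene for each of the 6 libraries, without normalisation. The submitters' processing notes name the build GRCh38 (hg38). The aligner, counter, annotation and strand setting are not given in the sources used here. Columns were assigned to samples by name and number, and the control columns, named cas, were taken as sgControl, the only control group. One unnamed row (no more than 9.17e-05% of the reads in any library) was dropped.

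The 10 genes and the gene lists were chosen with earlier results of these data known. Genes were kept by filterByExpr (minimum count 10, minimum total 15), scaled by TMM and compared by the quasi-likelihood test of edgeR 4.0.16 in R 4.3.3, over all 6 libraries without covariates. LCN2, A2M, NR1H4, CD163, LYZ, TTR and HAMP passed this filter only because of their sgRFX6 libraries. CPS1, COL1A2, COL3A1 and LAG3 passed it only because of their sgControl libraries. Benjamini-Hochberg adjustment ran over all 12839 genes, and an adjusted p under 0.05 was called. The fit was tested on simulated data. Log2 fold changes carry standard errors from the F statistic. Single values were compared by two-sided exact permutation tests. Libraries of a group differed by more than sampling noise (chi-square per degree of freedom 16.2 to 117). In sgControl, replicate 2 differed most from the others (85.4 and 68.7, against 16.2 between replicates 1 and 3). In sgRFX6, replicate 3 did so (94.3 and 117, against 17.9 between replicates 1 and 2). Floors cover counting error only, since PCR reads are not independent molecules.

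Genes named were the 10 members, RFX6, the list genes called, 14 set receptors, transducers and factors (IL6R, IL6ST, JAK1, STAT3, SOCS3, IL1R1, RELA, NFKB1, NFKBIA, NFKBIZ, CEBPB, CEBPD, HNF4A and FOXA2) and the 3 genes most like FGL1 among those whose average log2 CPM was 1 or more. Others are named as seen first, and some results are not reported here. Positions, exon lengths and GC content came from GENCODE 29 on GRCh38, which matched 15422 of 16720 named rows by symbol and 268 by another symbol. As alternatives, the data were refitted with DESeq2 1.42.0, limma-voom 3.58.1 with sample quality weights, RLE factors, library sizes alone, no filter, at least 1 CPM in 3 libraries, the replicate number as a block, a GC correction (span 0.3), a correction by the nearest 50 genes, ORM1 and ORM2 summed, and each library left out.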

Additional observations from a re-analysis of the deposited data

How the results depend on the processing

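Depth limits SAA1, SAA4, LBP and HP, where a few reads decide any value, and the 3 libraries per group limit the rest. Of 480 calls over all genes, DESeq2 gave 908, limma-voom 3998, the GC correction 1391 and fits without 1 library 212 to 718. Limma-voom called 3 of the 4 acute-phase genes and the GC correction 2, and fits without 1 library called 0 to 1, with 0 without sgControl replicate 3. The median of the acute-phase genes was 1.52 under limma-voom, 1.57 with ORM1 and ORM2 summed and 0.88 to 1.62 without 1 library (1.62 without sgControl replicate 2). RFX6 was called under limma-voom (-0.96) and the GC correction (-0.85), and lay between -0.89 and -0.67 without 1 library. The sum of SAA1 and SAA2 could not be fitted, since SAA2 has no row. The replicate numbers did not pair the libraries (correlations of same-numbered libraries -0.41, 0.17 and -0.09, and of differently numbered ones -0.45 to 0.57). With the replicate block, 648 genes were called in all, the IL-6 family receptors had 2 calls and IL6ST had -0.06. No other list count moved by over 1.5 times with the block.

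Limma-voom gave 8 calls among positive and 9 among negative acute-phase genes, 2 among IL-6 family ligands, 2 among their receptors, 1 among JAK and STAT transducers, 5 among JAK-STAT feedback genes, 5 among IL-1 and TNF ligands and receptors, 7 among NF-kB transducers, 1 among NF-kB feedback genes, 7 among transcription factors and 2 among receptors and partners. DESeq2 gave 2 among IL-6 family receptors, 1 among NF-kB feedback genes and 3 among transcription factors. The GC correction gave 2 among IL-1 and TNF ligands and receptors, 1 among NF-kB transducers, 1 among NF-kB feedback genes and 4 among transcription factors, and the regional correction gave 0 among IL-6 family receptors and 2 among transcription factors, where the 1 CPM filter gave 0 because NR1H4 was not tested. Without 1 library, the calls were 2 to 5 among positive and 1 to 3 among negative genes, 0 among IL-6 family receptors, 0 to 3 among JAK-STAT feedback genes, 0 to 1 among IL-1 and TNF ligands and receptors, 0 to 3 among transcription factors and 0 to 1 among receptors and partners. These counts stand beside 3998 of 12839 tested genes called by limma-voom, 908 of 16705 by DESeq2 and 1391 of 12839 by the GC correction. The causes were not tested.

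Signs reversed in genes that were not called. These were IL6ST (-0.60 under limma-voom, -0.84 to 0.69 without 1 library), JAK1 (-0.25 to 0.04 without 1 library), IL1R1 (-0.33 to 0.0071), RELA (-0.00038 under the regional correction), NFKBIA (0.03 under limma-voom, -0.62 to 0.04 without 1 library), CEBPB (-0.05 to 0.30 without 1 library), FOXA2 (0.07 under limma-voom, -0.28 to 0.0095 without 1 library) and NFKB1 (-0.06 under limma-voom and the regional correction, -0.0029 with library size only, -0.00017 without a filter, and -0.03 to 0.08 without 1 library).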

Other observations

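The library sgControl replicate 2 held the highest CPM of the 3 sgControl libraries for all 4 tested acute-phase genes. The same was so for 12 of the 14 tested positive acute-phase genes outside them (85.7%) and 8 of the 10 tested negative ones, beside 40.9% of all 12839 tested genes. HAMP, the iron hormone hepcidin, was counted 87 times in that library and 8 and 5 times in the other sgControl libraries, and IGFALS, a liver partner of insulin-like growth factors, 44 times against 5 and 5. These 2 genes are named after their values were seen. In the sgRFX6 libraries they were counted 32, 16 and 10 times and 17, 11 and 8 times, between the high and the low sgControl libraries. No label sets this library apart, and the pattern was not tested. Of the 4 acute-phase genes, the fold change of ORM1 depended on it most.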
